A study of Mus musculus with 14 samples.

Results

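The slow-fibre sarcomere genes are 10 of the 19505 genes measured in gastrocnemius muscle of tumour-bearing mice: slow myosin (Myh7), its light chains (Myl2, Myl3), the slow troponins (Tnnt1, Tnni1, Tnnc1), slow tropomyosin (Tpm3), the calcium pump Atp2a2, the calcium-binding protein Casq2 and the myosin-like gene Myh7b. They were found by gene symbol among probesets with exactly 1 symbol, and each was measured by 1 probeset. The set was chosen from these same arrays, because its level varied widely between muscles within both diet groups, so the width of that variation is given here as a description and not as a finding.

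The study compared 7 control muscles with 7 muscles of mice given HMB (β-hydroxy-β-methylbutyrate, which the body makes from leucine) on 14 Clariom S arrays. All were male C57BL/6 mice, 6 to 8 weeks old when bought, fed the AIN-93G diet alone (control) or with HMB at 1% of its weight, and HMB feeding started 1 week before Panc02 pancreatic cancer cells were injected under the skin. Mice of that experiment also received anti-PD1 or an isotype control, and the labels do not say which was given to the mice of these 14 arrays. There were no tumour-free mice among them, so the controls carry tumours too.

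Skeletal muscle fibres are slow or fast according to the myosin heavy chain they carry. Slow fibres contract slowly, resist fatigue and use a matched set of thick filament, thin filament and calcium store proteins, several of which they share with heart muscle. In rodents the soleus is rich in slow fibres, while the gastrocnemius beside it is made mostly of fast fibres, with slow fibres gathered in a deep region. The question asked here was whether HMB feeding was accompanied by another level of the slow set.

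Values were read as log2 units, and background was read from intron control probesets, whose median was 6.25 to 6.67 and whose 95th percentile was 10.53 to 10.87 over the arrays. The tissue label was checked with 10 skeletal muscle markers, whose mean was 17.80 to 17.99 on every array. Of 10 heart markers 9 were above the intron percentile on no array, the exception being Myl4. Control 7 stood apart in B cell markers (mean of 9 genes 11.43, other arrays 3.65 to 4.26) and T cell markers (mean of 8 genes 9.57, others 4.84 to 5.70), and HMB 4 in keratinocyte markers (mean of 10 genes 5.21, others 3.68 to 4.68, all 10 under the intron percentile on every array). The titles number the arrays without saying more about the animals, so p-values measure the spread between these samples.

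Both myosin genes of the set carry a microRNA inside the gene, and these are shown because they tie Myh7 and Myh7b to one family of regulators of muscle fibre genes known from mice. Sequences are from RefSeq (GRCm38.p6), 5′ to 3′, with the seed, bases 2 to 8, in capitals. Neither microRNA was listed by symbol among the probesets, so neither was measured. The seeds are alike at 6 of 7 bases. The sequence of miR-208b-3p lies at chr14:54975710-54975731 (minus strand) inside Myh7, and that of miR-499-5p at chr2:155622893-155622913 (plus strand) inside Myh7b.
mmu-miR-208b-3p: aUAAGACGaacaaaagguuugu
mmu-miR-499-5p: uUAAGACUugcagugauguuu

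The start regions of Myh7, Tnnt1, Tnni1 and Tnnc1 are shown because these 4 genes varied most closely together; they were picked after their values were seen. Each window runs from 250 bases before the RefSeq start to 50 bases after it (GRCm38.p6), the most upstream listed start being used, in the direction of the gene. For Tnni1 that start lies inside the annotated gene, not at its outer end. Capitals mark 2 motifs searched on both strands: the MCAT motif CATTCC, bound by TEAD factors, and CCACCC, the CACC box known from muscle gene enhancers. The windows lie at chr14:54994577-54994876 (Myh7, minus strand), chr7:4515926-4516225 (Tnnt1, minus strand), chr1:135799171-135799470 (Tnni1, plus strand) and chr14:31208062-31208361 (Tnnc1, plus strand).
Myh7: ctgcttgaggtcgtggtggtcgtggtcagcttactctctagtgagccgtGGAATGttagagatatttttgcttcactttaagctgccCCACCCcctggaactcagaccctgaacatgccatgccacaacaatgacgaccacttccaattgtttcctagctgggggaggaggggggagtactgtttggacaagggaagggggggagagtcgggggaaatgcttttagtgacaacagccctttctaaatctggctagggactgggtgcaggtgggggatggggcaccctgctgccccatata
Tnnt1: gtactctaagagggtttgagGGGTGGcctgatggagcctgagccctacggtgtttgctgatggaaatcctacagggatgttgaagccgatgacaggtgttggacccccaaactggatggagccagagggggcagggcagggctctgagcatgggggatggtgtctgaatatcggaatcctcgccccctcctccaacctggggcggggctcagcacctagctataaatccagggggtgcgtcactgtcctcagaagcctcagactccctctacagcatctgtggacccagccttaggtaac
Tnni1: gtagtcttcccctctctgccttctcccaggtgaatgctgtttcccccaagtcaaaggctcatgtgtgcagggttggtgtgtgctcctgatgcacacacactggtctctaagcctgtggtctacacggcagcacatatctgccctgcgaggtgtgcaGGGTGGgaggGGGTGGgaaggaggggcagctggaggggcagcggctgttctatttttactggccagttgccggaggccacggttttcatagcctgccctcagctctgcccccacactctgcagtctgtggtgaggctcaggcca
Tnnc1: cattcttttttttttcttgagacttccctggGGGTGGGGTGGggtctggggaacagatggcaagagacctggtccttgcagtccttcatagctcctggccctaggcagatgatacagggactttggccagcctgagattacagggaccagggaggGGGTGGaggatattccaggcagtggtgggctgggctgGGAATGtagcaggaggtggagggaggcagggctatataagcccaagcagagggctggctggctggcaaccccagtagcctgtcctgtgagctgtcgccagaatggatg

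The windows of Myh7 and Tnnc1 held CATTCC, and all 4 windows held CCACCC. With the most upstream window of each of the 9 genes of the set that have one, CATTCC stood in 3 (also Myl3) and CCACCC in 6 (also Myl3 and Tpm3). Some genes have a second listed start, and over all 13 windows of these genes CATTCC stood in 3 and CCACCC in 9, against 14.7% and 31.5% of all 32851 windows of the same length. In Myl3 a CCACCC and a CATTCC shared bases, and in Tnnc1 a pair of CCACCC matches overlapped. The E-box CANNTG stood in all 13 and in 72.3% of all windows. TATAAA stood in the window of Tnnt1, in the second window of Myl2 and in 13.6% of all windows. The MEF2 consensus stood in the window of Casq2 and in 3.19% of all windows. The SRF consensus stood in the window of Myl3 and in 1.63% of all windows. A match describes letters in a window and shows no binding.

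Among the thick filament genes, Myh7, the motor of slow fibres and of the heart ventricle, lay at 4.30, 10.35 and 13.81 (lowest, median and highest) in the 7 controls and at 5.34, 10.35 and 15.26 in the 7 HMB muscles. The control values from array 1 to array 7 were 11.57, 4.30, 6.31, 13.81, 9.47, 12.19 and 10.35, and the HMB values were 10.98, 7.83, 5.34, 15.26, 6.47, 10.35 and 12.99. HMB 4 and control 4 were the highest and control 2 the lowest, and the groups overlapped over most of their range. On control 2, control 3 and HMB 3 Myh7 lay under the intron median of the array. The means were 9.71 ± 3.36 in control and 9.89 ± 3.57 in HMB (SD, n = 7 each), a difference of 0.17 log2 units (SE 1.65, limma adjusted p 0.998). The near-identical heart gene Myh6 was under the intron median on every array (3.40 to 5.69) and had an r of 0.29 with Myh7.

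Myl2, the regulatory light chain of slow and ventricular myosin, ran through 4.54, 12.88 and 14.95 in control and 10.26, 12.81 and 16.33 in HMB. Its lowest control, control 2, lay far under the next control (10.19), while the HMB muscles had no such value. The difference was 1.16 (SE 1.37, limma adjusted p 0.990), and without control 2 it was -0.04. Myl3, the essential light chain of the same motors, ran through 4.52, 9.95 and 13.15 in control and 7.69, 10.62 and 15.06 in HMB. Its difference was 1.04 (SE 1.24, limma adjusted p 0.990), and without control 2 it was 0.16. In both light chains HMB 4 was the highest array of all and control 2 the lowest, and the rest of the values overlapped between the groups.

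**Figure D1:**
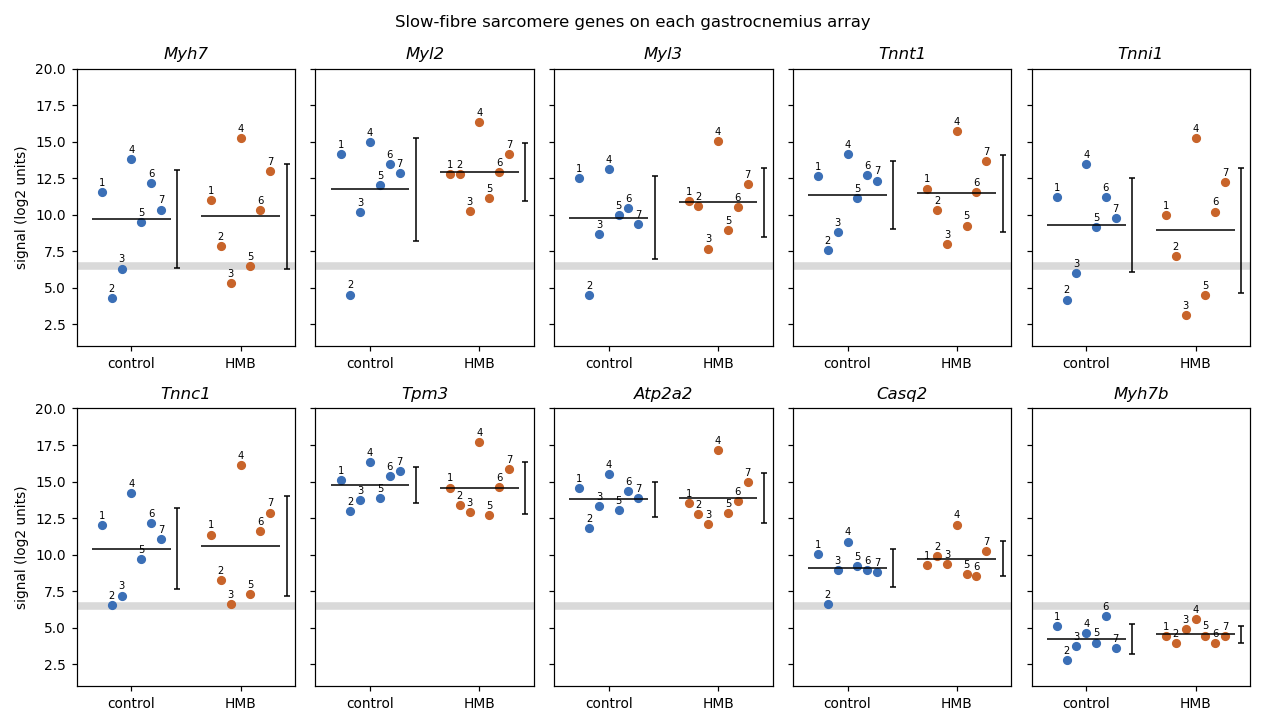
Signal of each slow-fibre sarcomere gene (log2 units, vertical axis) on the 7 control (blue) and 7 HMB (orange) arrays, numbered as in the titles, with the group mean as a line, ± 1 SD as a bar beside it, and the range of intron control medians (6.25 to 6.67) as a grey band. HMB 4 is the highest array in 9 of 10 genes and control 2 the lowest in 8 of 10, and the groups overlap in every panel.

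The slow troponins make the thin filament answer to calcium. Tnnt1 anchors the complex to tropomyosin, Tnni1 blocks the filament at rest and Tnnc1, which the heart uses as well, binds calcium. Tnnt1 was at 7.59, 12.34 and 14.16 in control and at 8.0, 11.54 and 15.71 in HMB, a difference of 0.11 (SE 1.19, limma adjusted p 0.998). Tnnc1 was at 6.54, 11.05 and 14.20 in control and at 6.63, 11.38 and 16.11 in HMB, a difference of 0.18 (SE 1.48, limma adjusted p 0.998). In both genes control 2, control 3, HMB 3 and HMB 5 made the low end, and HMB 4 and control 4 the high end. The lowest values of Tnnc1, on control 2 and HMB 3, lay close to the intron medians of those arrays (6.25 and 6.33).

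Tnni1 covered the widest span of the set. Its control values were 11.19, 4.20, 5.98, 13.46, 9.14, 11.21 and 9.76 from array 1 to array 7, and its HMB values 9.99, 7.20, 3.15, 15.26, 4.52, 10.22 and 12.21. It lay under the intron median of its array on 4 of the 14 arrays, namely control 2, control 3, HMB 3 and HMB 5, so its low end is at background. The medians were 9.76 in control and 9.99 in HMB while the means were 9.28 ± 3.21 and 8.93 ± 4.27 (SD, n = 7 each), a difference of -0.34 (SE 1.80, limma adjusted p 0.996). Without HMB 4 that difference was -1.40 and without HMB 3 it was 0.62.

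Tpm3, tropomyosin of slow fibres, was at 12.98, 15.13 and 16.36 in control and at 12.69, 14.59 and 17.69 in HMB, and above the intron percentile on all 14 arrays. Other forms of this gene are made in most cell types, and its single probeset was not resolved by form. The difference was -0.19 (SE 0.74, limma adjusted p 0.996). HMB 4 was again the highest and HMB 5 the lowest, with control 2 and HMB 3 close above it.

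Of the calcium store genes, Atp2a2, the pump that refills the store of slow and heart muscle, was at 11.83, 13.88 and 15.51 in control and at 12.11, 13.51 and 17.16 in HMB. It is also made in a common form in most cells, which its probeset was not shown to separate. The difference was 0.08 (SE 0.71, limma adjusted p 0.998). Casq2, which buffers calcium inside the store, was at 6.62, 8.95 and 10.89 in control and at 8.51, 9.33 and 12.06 in HMB, a difference of 0.63 (SE 0.61, limma adjusted p 0.990). Casq2 passed the intron percentile on 2 of the 14 arrays, HMB 4 and control 4. Myl3 and Tnni1 passed it on 5 arrays each, Myh7 on 6, Tnnc1 on 8, Tnnt1 on 9, Myl2 on 11 and Atp2a2 on 14.

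Myh7b, the host of miR-499 and a gene whose RNA is known in mammals to yield little protein in muscle, was at 2.81, 3.98 and 5.82 in control and at 3.95, 4.45 and 5.61 in HMB. Every one of these values was under the intron median of its array, so Myh7b was not above background on any of them. Its highest value was on control 6, not HMB 4. The difference was 0.30 (SE 0.40, limma adjusted p 0.992) and concerns background-level signal.

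HMB and control did not differ in any gene of the set beyond the spread between muscles. In limma's test 0 of 10 genes passed the adjusted threshold, as did 0 of all 19505 genes (0%), 0 of 10 had an unadjusted p under 0.05, against 4.54% of all genes, and 0 of 10 had groups that did not overlap, against 0.0974% of all genes. The unpaired test named in the methods gave 0 of 10 as well. Means were higher in HMB for 8 genes and lower for Tnni1 and Tpm3, and the median difference of the set was 0.17 beside 0.01 over all genes, of which 51.7% were higher in HMB.

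The mean of the 10 genes was 10.41 ± 2.19 in control and 10.73 ± 2.26 in HMB (SD, n = 7 each), a difference of 0.31 beside a pooled SD of 2.22. It was 0.59 with the median of the 10 genes in place of their mean and 0.12 with array weights. From array 1 to array 7 that mean was 11.89, 6.59, 8.69, 13.12, 10.16, 11.67 and 10.78 in control and 10.97, 9.70, 8.03, 14.63, 8.63, 10.79 and 12.35 in HMB. The medians of the groups were 10.78 and 10.79. The sign changed with single arrays: without control 2 the difference was -0.32, without HMB 4 it was -0.34 and without control 4 it was 0.76. The 95% interval of Myh7 ran from -3.35 to 3.70 and that of Myl2 from -1.75 to 4.07. Differences within these intervals were not excluded with 7 arrays a group.

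**Figure D2:**
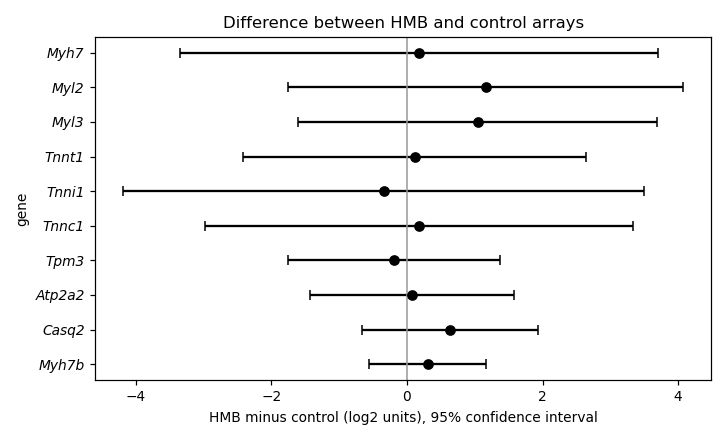
HMB minus control (log2 units, horizontal axis) for each of the 10 genes, with the 95% confidence interval of limma's fit as a bar. Every interval spans 0, the widest being that of Tnni1 (-4.18 to 3.50) and the narrowest that of Myh7b (-0.55 to 1.16).

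The spread between muscles that picked these genes was as follows. The SD within groups was 3.78 for Tnni1, 3.47 for Myh7, 3.10 for Tnnc1, 2.86 for Myl2, 2.60 for Myl3 and 2.49 for Tnnt1, which put them at ranks 1, 2, 3, 5, 10 and 17 of 19505 genes. It was 1.53 for Tpm3, 1.47 for Atp2a2, 1.26 for Casq2 and 0.82 for Myh7b, at ranks 189, 214, 372 and 1433. The median gene had an SD of 0.43. At the threshold of an SD of 1, which 765 genes (3.92%) exceeded, Casq2 was the gene of the set just inside and Myh7b the one outside.

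The same muscles were high or low for nearly every gene of the set. HMB 4 was the highest array in 9 of 10 genes and control 4 the second highest in 9. Control 2 was the lowest in 8, and control 2, control 3, HMB 5, HMB 3 and HMB 2 were among the lowest 5 arrays in 10, 9, 9, 8 and 7 genes. Muscles of both groups thus stood at both ends. In bulk muscle, fewer slow fibres and less slow RNA per fibre cannot be told apart.

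Over the 14 arrays, with each group's mean subtracted, the 45 pairs of genes had r from 0.53 to 0.99 with a median of 0.90 (a description, since the points share arrays and the genes were chosen for their variation). Myh7, Tnnt1, Tnni1 and Tnnc1 were closest, with r from 0.98 to 0.99 among them. Myl2 and Myl3 were closest to each other (0.96), and Tpm3 and Atp2a2 had an r of 0.96 with each other. Casq2 had r of 0.75 to 0.79 with Myh7 and the troponins and 0.91 with Myl3, and Myh7b, at background, had r of 0.53 to 0.68 with the others. The median r was 0.92 within the 7 controls and 0.95 within the 7 HMB muscles, and it was 0.87 without control 2 and HMB 4. Without those arrays the pairs with Myh7b had r of 0.16 to 0.30, and Casq2 had r of 0.47 to 0.51 with Myh7 and the troponins, 0.47 with Tpm3 and 0.73 with Myl3.

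**Figure D3:**
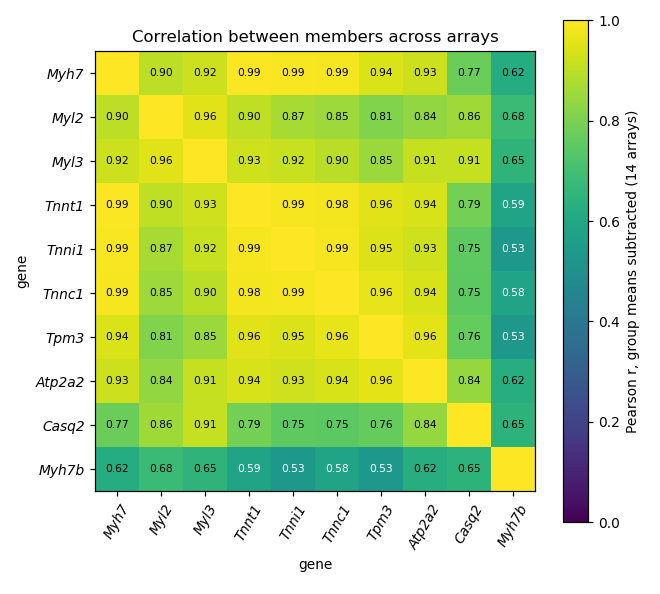
Pearson r between each pair of the 10 genes over 14 arrays with each group's mean subtracted, on a colour scale from 0 to 1. Myh7 and the 3 troponins form the brightest block (0.98 to 0.99), and Myh7b, which was at background, has the lowest values (0.53 to 0.68).

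The fast counterparts of these proteins did not share the spread. Each of 9 slow genes was set beside the fast gene of the same role: Myh4 for Myh7, Mylpf for Myl2, Myl1 for Myl3, Tnnt3 for Tnnt1, Tnni2 for Tnni1, Tnnc2 for Tnnc1, Tpm1 for Tpm3, Atp2a1 for Atp2a2 and Casq1 for Casq2. Over the 14 arrays the slow genes spanned 5.0 to 12.10 log2 units and the fast genes 0.17 to 0.64. The widest slow spans include signal under the intron median of an array. Tnni1 was above that median on 10 of the 14 arrays, Myh7 on 11, and Myl2 and Myl3 on 13. Tpm3 and Atp2a2, which were above the intron percentile on all 14 arrays, spanned 5.0 and 5.33. For Tnni1 the span was 12.10 while for Tnni2 it was 0.24, and for Tnnc1 it was 9.56 while for Tnnc2 it was 0.64. The r within a pair ran from -0.51 (Tpm3 and Tpm1) to 0.29 (Tnni1 and Tnni2), with 4 of 9 below 0. The fast genes lay between 17.08 and 19.54, close to the highest value of an array (19.21 to 19.54), and the part of that ceiling in their narrow span was not tested.

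**Figure D4:**
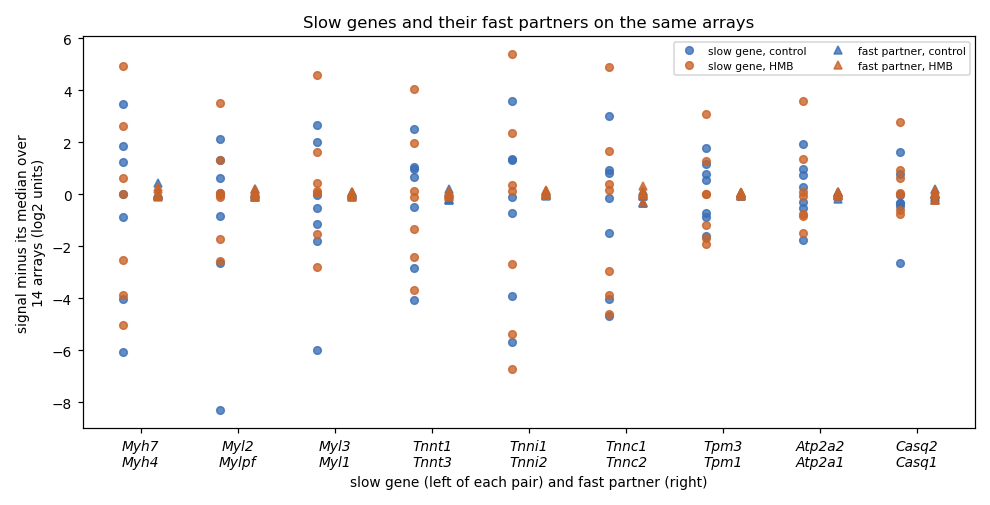
Signal of 9 slow genes (circles) and their fast partners (triangles) on each array, minus the gene's own median over the 14 arrays (log2 units, vertical axis), with control in blue and HMB in orange. The slow genes span 5.0 to 12.10 log2 units and the fast partners 0.17 to 0.64. The widest slow spans include values under the intron median of an array.

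Of the other fast-fibre genes, the myosins of the intermediate fibres had a positive r with the slow set. Myh2, the myosin of fast oxidative fibres, was at 12.23, 16.73 and 17.56 in control and at 16.03, 17.03 and 17.67 in HMB, with an r of 0.77 with the mean of the 10 slow genes. Myh1, the myosin of IIX fibres, had an r of 0.67. Without control 2 and HMB 4 the r was 0.75 for Myh2 and 0.54 for Myh1. Myh1 was lowest on control 2 (14.08) and HMB 3 (15.35). It did not follow the slow set at its high end, with 17.06 on HMB 4 and its highest value, 17.59, on HMB 1. Actn3, the actinin of the fastest fibres, had an r of -0.78 within a span of 0.57, and the fast myosin-binding protein Mybpc2 an r of -0.73 within 0.83, control 4 and HMB 4 being the lowest of their groups in both. Over all 15 fast genes 7 had a positive and 8 a negative r, with a median of -0.12. The list mean had an r of 0.59, or 0.47 without control 2 and HMB 4. The SD within groups was 1.39 for Myh2 and 1.0 for Myh1, beside a median of 0.13 over the 15 genes. The r of the list mean therefore does not describe most of the fast genes. In limma's test 0 of the 15 passed the adjusted threshold and 0 had an unadjusted p under 0.05.

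Of 15 other genes known from slow or oxidative fibres, 14 had a positive r with the slow mean, with a median of 0.81. The median was -0.06 over the 5581 genes above the intron percentile on at least 1 array. The list of 15 was not filtered in this way. Of its genes 4 (Myl6b, Myom3, Pln and Sln) were under that percentile on every array. Myoz2, a Z-disc protein of slow fibres, was at 8.55, 14.31 and 16.19 in control and at 13.54, 15.33 and 16.99 in HMB (r 0.86). Ankrd2, a stretch-responsive protein, was at 6.30, 13.63 and 16.09 in control and at 12.57, 15.02 and 16.14 in HMB (r 0.85 over 14 arrays and 0.86 without control 2 and HMB 4). Both had control 2 far below the rest and HMB 4 at the top. Fhl1 (0.87), the M-band protein Myom3 (0.87, under the intron percentile on every array) and the fatty acid carrier Fabp3 (0.86) were also close, while Smpx (0.21) and Car3 (-0.51) were not. Without control 2 and HMB 4 the r was 0.81 for Myoz2, 0.82 for Fhl1, 0.75 for Myom3 and 0.75 for Fabp3. It turned negative for Smpx (-0.28), Sln (-0.45) and Myl6b (-0.16), and Car3 was at -0.43. The mean of the 15 had an r of 0.90 over the 14 arrays and 0.81 without those arrays. HMB means were higher for 14 of the 15, beside 51.7% of all genes. Most of these genes followed the same slow mean, so they are not separate results. In limma's test 0 passed the adjusted threshold and 0 had an unadjusted p under 0.05, against 4.54% of all genes. The median difference was 0.31, beside 0.01 over all genes. The mean of the 15 was 11.34 on control 2 and 13.28 on the next lowest control, control 7, which lowers the control mean.

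**Figure D5:**
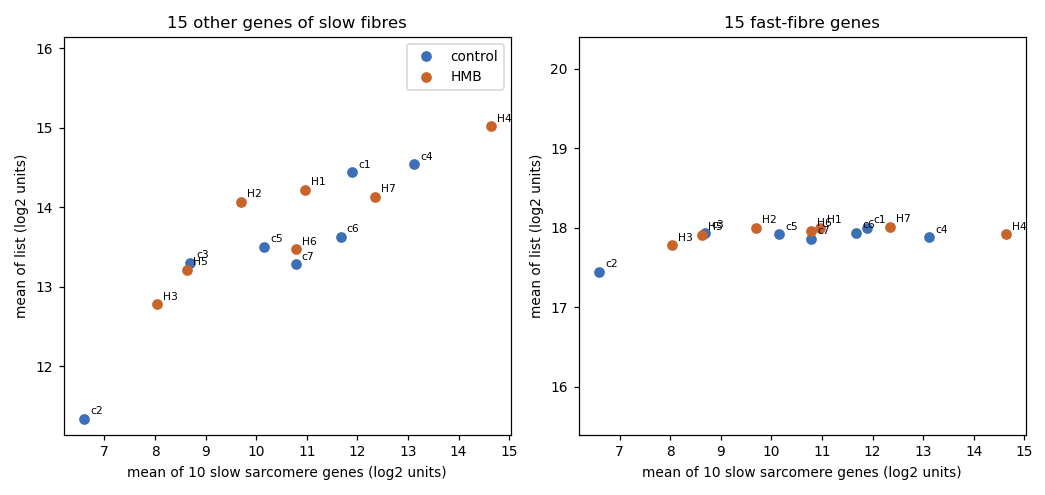
Mean of the 10 slow sarcomere genes on each array (horizontal axis, log2 units) against the mean of 15 other genes of slow fibres (left) and of 15 fast-fibre genes (right), on vertical axes of the same length, with c for control and H for HMB. The first list ranges from 11.34 on control 2 to 15.02 on HMB 4, the second from 17.45 on control 2 to 18.01 on HMB 7. The median r of single genes with the slow mean was 0.81 in the first list and -0.12 in the second.

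Of the regulators of fibre type, 23 were measured, 10 with a positive and 13 with a negative r, and their median r was -0.22. The nuclear receptor Esrrg, which promotes oxidative genes, was at 8.0, 9.48 and 11.17 in control and at 8.53, 9.80 and 11.52 in HMB, with an r of 0.84, and passed the intron percentile on 3 arrays. Vgll2, a partner of TEAD factors that promotes slow genes, had an r of 0.71, Fnip1 of 0.64 and Prox1, which was under the intron percentile on every array, of 0.61. At the other end were Nfatc1 (-0.62), a target of calcineurin that acts on slow genes, Tead4 (-0.62, under the intron percentile on every array), the calcineurin subunit Ppp3ca (-0.58) and Mef2d (-0.53). The coactivator Ppargc1a had an r of 0.18 and the repressor of slow genes Sox6 of -0.25. Without control 2 and HMB 4 the r was 0.77 for Esrrg, 0.57 for Vgll2, 0.67 for Fnip1 and 0.35 for Prox1. It was -0.59 for Nfatc1, -0.56 for Tead4, -0.60 for Ppp3ca, -0.25 for Mef2d, 0.23 for Ppargc1a and 0.17 for Sox6. In limma's test 0 of the 23 passed the adjusted threshold and 0 had an unadjusted p under 0.05.

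Outside the set, 10 genes above the intron percentile on at least 1 array were most like the mean of the slow genes over the 14 arrays. They were the mitochondrial enzyme Idh2 (0.91), the lysosomal enzyme Asah1 (0.91), the myosin light chain Myl12a (0.91), the sodium pump subunit Atp1b1 (0.89), the cytoskeletal adaptor Pdlim1 (0.89), the glycogen branching enzyme Gbe1 (0.89), Plbd1 (0.88), the heart-type lactate dehydrogenase subunit Ldhb (0.88), Fhl1 (0.87) and Myoz2 (0.86). Idh2 was at 11.90, 13.62 and 15.41 in control and at 13.04, 13.99 and 15.76 in HMB. Ldhb was at 6.56, 10.54 and 13.28 in control and at 9.86, 11.27 and 13.60 in HMB. In all 10, control 2 was the lowest control, HMB 3 the lowest HMB muscle and HMB 4 the highest HMB muscle. The slow mean has the same order, and the 10 were picked for following it on these arrays. Their shared order is therefore a description of that choice and not a separate result. Without control 2 and HMB 4 the r of the 10 genes lay between 0.77 and 0.86. Fhl1 and Myoz2 are also among the other genes of slow fibres described above. Of the 5581 genes compared, 47 (0.842%) had an r over 0.8 and 25 an r under -0.8. The lowest were Dhdh (-0.89), Mrtfb (-0.87), the calmodulin gene Calm3 (-0.86), the actin-capping gene Tmod1 (-0.85) and Cux1 (-0.85).

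Markers of other cell types moved with the slow mean in part. The mean of 9 adipocyte markers had an r of 0.51 with it and lay at 14 log2 units on control 7, 12.67 on HMB 7 and 11.43 on HMB 4 (others 8.97 to 10.85), and the mean of 10 keratinocyte markers had an r of 0.61. Without control 2 and HMB 4 these were 0.38 and 0.49. Macrophage and tendon marker means had r of 0.50 and 0.49, which were 0.23 and 0.21 without those arrays. Schwann cell and fibroblast marker means had r of 0.26 and 0.37, which were 0.47 and -0.13 without them. B cell markers (r 0.00), T cell markers (0.04), heart markers (-0.14) and skeletal muscle markers (-0.25) had r near or below 0. Smooth muscle and erythroid marker means had r of -0.16 and 0.13, which were -0.43 and 0.52 without control 2 and HMB 4. The erythroid mean rests on 3 genes, all under the intron percentile on every array. So were all 10 keratinocyte, 5 of 7 Schwann cell, 6 of 9 macrophage, 5 of 10 tendon and 5 of 8 T cell markers. The same held for 3 of 9 B cell, 3 of 10 smooth muscle, 2 of 8 fibroblast and 0 of 9 adipocyte markers. The part of these other cell types in the slow gene values was not tested. Without control 7 and HMB 4, the arrays highest in lymphocyte and keratinocyte markers, the median r between the 10 genes was 0.88 and the difference of their mean was -0.27.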

How the data were processed

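Gene expression was measured on 14 Clariom S mouse arrays (7 control, 7 HMB, grouped by title). The authors deposited a table of summarised values per probeset, read here as log2, and all its array columns were used. The scale was inferred from the values, since the highest value of an array (19.21 to 19.54) exceeds what a scanner usually gives on that scale, so only differences in those units are given and no fold changes. Background correction, summarisation and normalization were not given in the sources used here. The extraction text of the labels names tumour although the tissue is gastrocnemius.

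Of 22206 gene probesets, 19572 with 1 symbol were kept, several per gene were averaged (55 genes), and 2634 without a symbol were left out, which gave 19505 genes with no filter on dim ones. Gene symbols came from the platform annotation and loci from RefSeq (GRCm38.p6). HMB was compared with control by limma 3.58.1 in R 4.3.3 (lmFit, eBayes, two-sided), adjusted by Benjamini-Hochberg over all genes at a threshold of 0.05, and the fit was tested on simulated data. Precision is limited by the number of arrays. Correlations were computed in Python 3.11.15 on values with each group's mean subtracted, without p-values.

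Genes named are the 10 members, their fast partners, the genes of highest or lowest r in each list (up to 5 at each end), and the 10 highest and 5 lowest of all genes compared. A few others (Myh6, Ppargc1a, Sox6) were added after their values were seen. Members and lists were chosen with earlier results of these data known. Of 26 regulators listed, 23 were measured, and the others were not analysed here. Atp2a2 had no promoter entry. Alternatives were renewed quantile normalization, array centring, filters on dim genes, the brightest probeset, single probesets, other variance settings, array weights, a replicate block, the methods' t-test and leaving out arrays.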

Additional observations from a re-analysis of the deposited data

Results flagged for a closer look

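In each group of 7 arrays, the highest or lowest value was flagged where its gap to the next exceeded a critical share of the group's range. Of 70 gene and group combinations examined, 3 were flagged. Chance flags about 1 in 20 where combinations are independent. These share arrays, and some of the genes were picked by their r with the slow mean, so the count cannot be judged by that rate. Control 2 was flagged as the lowest control for Fhl1 (15.76, the next control 17.95) and for Myoz2 (8.55, the next 13.40), both genes that followed the slow-fibre set. Control 1 was flagged as the highest control for the fast myosin gene Myh4 (19.54, the next 19.15). None of the 10 slow-fibre sarcomere genes was flagged, nor was their mean.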

How the results depend on the processing

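The count of slow-fibre genes past limma's adjusted threshold was 0 in the main fit and under every alternative run, as was the count over all genes (885 genes had an unadjusted p under 0.05, 853 by the methods' t-test). With the replicate block both counts were 0, 958 genes had an unadjusted p under 0.05 and the difference of the slow mean was 0.31. Same-numbered arrays did not deviate together (r -0.07 to 0.12, 2 of 7 pairs over 0.1), so the block changes no statement here. When each array was left out in turn, the sign turned for 7 of the 10 genes and for their mean, and the differences ranged from -0.73 to 0.93 for Myh7, -0.041 to 1.70 for Myl2, -0.59 to 0.69 for Tnnt1, -1.40 to 0.62 for Tnni1, -0.74 to 0.84 for Tnnc1, -0.72 to 0.11 for Tpm3, -0.47 to 0.37 for Atp2a2 and -0.34 to 0.76 for the mean of the 10. The sign held for Myl3 (0.16 to 1.60), Casq2 (0.23 to 0.94) and Myh7b (0.065 to 0.57). With array weights Myh7 was at -0.011, Atp2a2 at -0.11 and the mean of the 10 at 0.12. With the median of the 10 in place of the mean the difference was 0.59, and with each gene divided by its SD it was 0.17 SD units. In a fit chosen after seeing the data, without control 7 and HMB 4, Myh7 was at -0.62, Tnnt1 at -0.43, Tnnc1 at -0.64 and Atp2a2 at -0.46. There Tnni1 was at -1.32 and Tpm3 at -0.55, while Myl2 was at 0.78, Myl3 at 0.26, Casq2 at 0.20 and Myh7b at 0.019. In another, without control 2 and HMB 4, Myh7 was at -1.63, Myl2 at -0.61, Myl3 at -0.54, Tnnt1 at -1.22, Tnni1 at -2.24, Tnnc1 at -1.39, Tpm3 at -1.01, Atp2a2 at -0.80, Casq2 at -0.17, Myh7b at -0.11 and the mean of the 10 at -0.97. The causes were not tested. The median r between the genes stayed between 0.87 and 0.92 under all alternatives run. Signal near background limits Myh7b on all arrays and the low end of Myh7, Tnni1, Tnnc1, Myl2, Myl3 and Casq2.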
